A study of Mus musculus with 8 samples.

Results

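MHC and antigen presentation genes were measured in the oviducts of CD-1 mice on day 2 of pregnancy (GD2) after neonatal treatment with the phytoestrogen genistein (Gen). The members were the probes of the arrays whose gene name begins with H2-, the prefix of the mouse MHC, or is 1 of 15 other names of the antigen presentation pathway, and 74 of the 41174 noncontrol probes, for 49 gene names, met this rule. Female pups of both groups were injected subcutaneously on PND1–PND5, the controls with corn oil alone and the Gen group with Gen at 50 mg/kg/day in corn oil. Mice of both groups underwent superovulation and mating at the age of 6–8 weeks, and oviducts of plug-positive females were taken 48 hr after hCG, without the embryos. Each of the 4 control and 4 Gen samples was an independent biological replicate, hybridized with 1 dye (Cy3) to 1 Agilent whole mouse genome array. For adult RT-PCR samples the paper states that a replicate was the pooled pair of oviducts of 1 mouse. Each array is read here as 1 mouse in the same way. CD-1 is an outbred stock, and the MHC haplotypes of the mice are not given in the labels.

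MHC class I molecules are a heavy chain bound to beta 2-microglobulin (B2m) and present peptides made in the cytosol to CD8 T cells. The peptides are cut by the proteasome, in which Psmb8, Psmb9 and Psmb10 are the subunits of the immunoproteasome, carried into the endoplasmic reticulum by Tap1 and Tap2, and loaded with the help of tapasin (Tapbp). MHC class II molecules are pairs of an alpha and a beta chain (H2-Aa with H2-Ab1, H2-Ea with H2-Eb1) that present peptides from endosomes to CD4 T cells. They are guided by the invariant chain Cd74, which is cut by the protease cathepsin S (Ctss), and their loading is catalyzed by H2-DM and restrained by H2-O. Most nucleated cells express class I, whereas class II is largely made by B cells, dendritic cells and macrophages and can be induced in other cells. H2 genes vary greatly between mice of different haplotypes, and some laboratory haplotypes do not express H2-Ea.

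Of the 49 genes, 25 were class I genes including B2m, 10 were class II genes including Cd74, and 7 served the supply of class I peptides. The others were Cd1d1, which presents lipids, Ctss, the costimulatory genes Cd80 and Cd86, H2-D4, which no class list held, and H2-Ke2 and H2-Ke6, which carry the prefix for their place in the MHC and do not present antigen. Of the 74 probes, 57 for 40 genes lay between positions 32004181 and 35427193 of chromosome 17 (mm7, the NCBI build 35 of the array design). Outside the MHC lay B2m, Cd1d1, Ctss, Psmb10, Psme1, Cd80, Cd86 and Cd74. The names Ciita and Psme2 had no probe. A probe named C2ta, an older name of Ciita, the master regulator of class II transcription, was therefore read beside the members, a choice made after its values were seen.

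A probe of 60 bases does not always separate the genes of this family. The probes of H2-Ea and H2-Eb1 are shown because their signals differed most between mice, and those of H2-Q10 and H2-Q5 because they share the 35 bases in capitals. All 4 have at least 1 reading frame without a stop codon, and each sequence is that of the array design, 5′ to 3′.
H2-Ea: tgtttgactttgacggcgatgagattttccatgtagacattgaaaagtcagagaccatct
H2-Eb1: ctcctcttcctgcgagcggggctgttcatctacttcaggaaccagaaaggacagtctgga
H2-Q10: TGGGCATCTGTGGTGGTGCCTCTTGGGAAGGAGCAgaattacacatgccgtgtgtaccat
H2-Q5: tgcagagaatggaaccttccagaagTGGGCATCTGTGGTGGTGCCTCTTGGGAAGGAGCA
The H2-Ea probe lies at chr17:32421735-32421794 on the minus strand and the H2-Q10 probe at chr17:33574106-33574165 on the plus strand. The H2-Eb1 probe at chr17:32392430-32392891 on the plus strand and the H2-Q5 probe at chr17:34255077-34255511 on the minus strand span 462 and 435 bases of the genome. The H2-Q10 probe is listed in the array design with transcripts of 4 genes, H2-Bl, H2-Q1, H2-Q10 and H2-Q6. Of 37 class I heavy chain probes, 6 shared at least 20 consecutive bases with a probe of another H2 gene, and 3 were listed with transcripts of more than 1 gene. Others, among them every probe of H2-K1, were listed with transcripts of no RefSeq gene. The signals of class I genes below are therefore those of the named probes, and near copies may contribute to them.

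Signals are intensities after scaling of each array to a common 75th percentile, the 4 values of a group are given in the order of replicates 1 to 4, and differences are log2 fold changes of Gen-treated mice compared with controls with the SE of limma. Adjusted p-values are Benjamini-Hochberg values over 41173 probes. A gene with several probes is represented by its brightest probe. On all 8 arrays 53 of the member probes, for 35 genes, were well above background by the scanner software's test, and 8 probes were above it on none. Signals of 6 of 6 oviduct epithelium markers, among them Ovgp1 and Foxj1, were well above background on all 8 arrays. Each treatment had a slide of its own, and the effects of slide and treatment cannot be told apart. In whole oviducts, fewer cells of a type and less RNA per cell cannot be told apart either.

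Differences between the groups passed the test among measured members, in Ctss and in 1 of 3 probes named H2-Q1. Of the 74 member probes 8 had an adjusted p under 0.05, beside 16.2% of all probes tested. The other 6 were H2-M1, H2-M10.1, H2-M10.3, H2-M10.4, H2-M10.5 and H2-M10.6, relatives of class I genes known from vomeronasal sensory neurons, whose probes were above background on no array. Their calls, all lower in Gen, stand beside 63.6% of all such dim probes called, and they give no level and no fold change. Among the 53 members measured on every array, 2 were called, beside 4.37% of all such probes, a share near that of the arrays as a whole. With probes filtered on background before the adjustment, no member passed by limma and 3 had an unadjusted p under 0.05, beside 1.11% of all probes called.

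Ctss, the protease of invariant chain processing in antigen-presenting cells, was higher in Gen-treated mice. Its signals were 25425, 30656, 27267 and 31694 in controls and 39134, 47061, 36213 and 36897 in Gen-treated mice. The groups did not overlap, and Gen replicate 2 was the highest. The difference was 0.47 (SE 0.13), a 1.38-fold higher signal, with an adjusted p of 0.0488 by limma and an exact two-sided permutation p of 0.0286, the smallest that 4 against 4 allows. It stayed between 0.38 and 0.52 with any array left out, and the adjusted p rose to between 0.0553 and 0.118. Under the other alternatives the adjusted p lay between 0.0308 and 0.176. The probe lies at chr3:95430189-95430248.

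**Figure D1:**
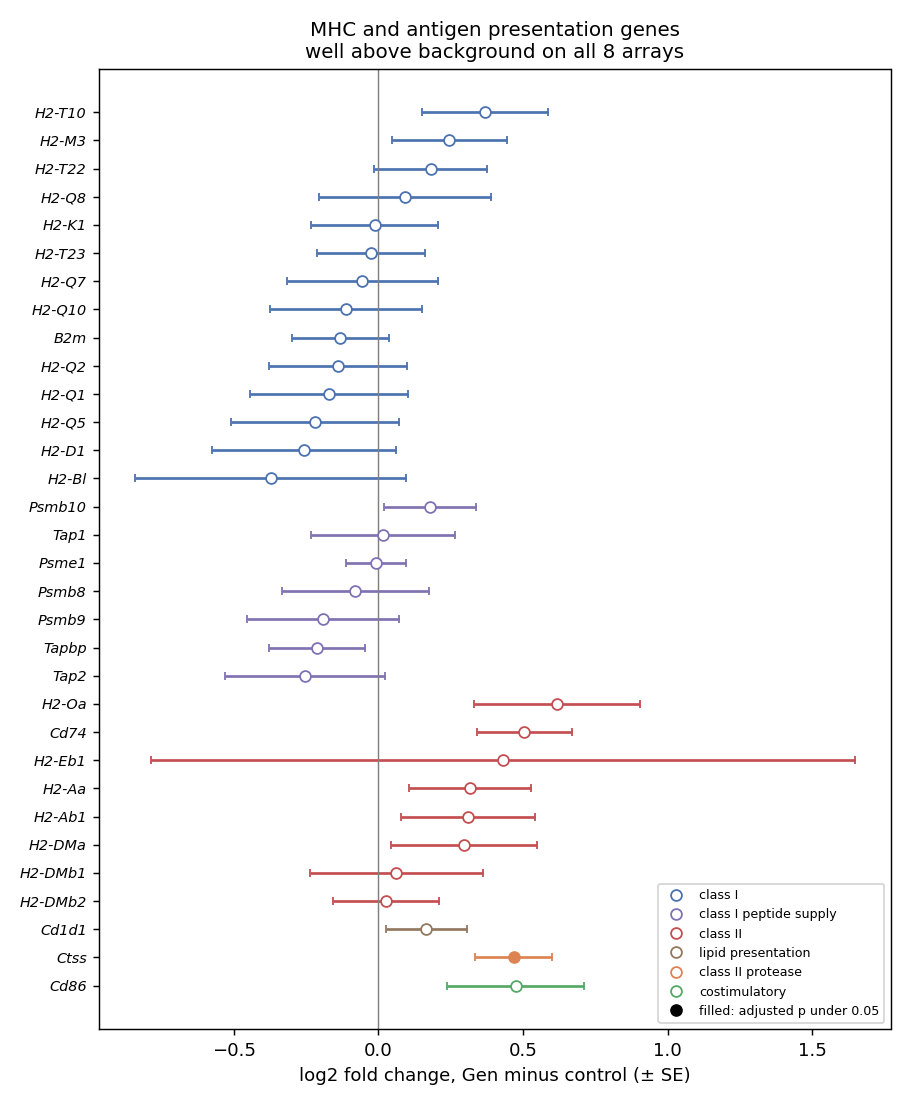
Log2 fold changes (Gen minus control) of genes measured above background on every array, colored by role, each point the brightest probe of a gene with its SE from limma. Ctss is filled for an adjusted p under 0.05, the 8 class II genes lie between 0.03 and 0.62, and 10 of 14 class I genes lie below 0.

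Class I genes measured on every array showed no difference that passed the test in the probes representing them. Of the 25 class I genes 14 were well above background on all 8 arrays, and by limma 0 of these had an adjusted p under 0.05 and 0 an unadjusted p under 0.05. Their differences lay between -0.37 and 0.37 with a median of -0.08, beside -0.01 over all 24920 probes of the arrays measured on all 8, and 4 lay above 0 and 10 below.

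H2-K1, a classical heavy chain, had signals of 92622, 128519, 139396 and 154593 in controls and 118531, 174388, 100026 and 119811 in Gen-treated mice, a difference of -0.01 (SE 0.22). H2-D1, the other classical heavy chain on these arrays, had 55544, 80776, 92519 and 121222 in controls and 76478, 112588, 48165 and 59416 in Gen-treated mice, a difference of -0.26 (SE 0.32). In both genes control replicate 4 and Gen replicate 2 were the highest of their groups and control replicate 1 and Gen replicate 3 the lowest, so that the range within each group exceeded the difference between the groups. B2m, the light chain common to class I molecules, had 38889, 58731, 60378 and 53790 in controls and 41242, 52824, 48459 and 48902 in Gen-treated mice, a difference of -0.13 (SE 0.17). Replicate 1 was the lowest of each group, and the 3 probes of B2m gave between -0.13 and 0.06.

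Among the nonclassical genes, H2-T23, which encodes Qa-1, a ligand of receptors on natural killer cells, had 73056, 78231, 76992 and 97423 in controls and 75382, 111305, 68750 and 69204 in Gen-treated mice, a difference of -0.03 (SE 0.19). H2-M3, which presents formylated peptides, had 3550, 4108, 4424 and 4330 in controls and 3916, 6700, 5421 and 3876 in Gen-treated mice, a difference of 0.25 (SE 0.20). The groups overlapped in both, and Gen replicate 2 was the highest of the 8. The brightest probe of H2-Q10, shown above, had 66088, 92474, 100809 and 126927 in controls and 91514, 128630, 69888 and 69763 in Gen-treated mice, a difference of -0.11 (SE 0.26). H2-Q10 encodes a secreted class I molecule known from liver, and its probes did not give 1 pattern. Its other probes gave -0.41 (SE 0.34) and 0.59 (SE 0.53), neither called, and the dimmest, at chr17:33574366-33574425, exceeded background on 0 of the control and 3 of the Gen arrays, too dim for a fold.

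The 3 probes named H2-Q1 gave different answers and may not measure the same transcript. The probe at chr17:33420381-33420440 had signals of 2614, 2098, 2059 and 3374 in controls and 3395, 4218, 4241 and 5681 in Gen-treated mice. The groups did not overlap, although control replicate 4 and Gen replicate 1 were close. The difference was 0.79 (SE 0.21), 1.73-fold, with an adjusted p of 0.0396 by limma and an exact two-sided permutation p of 0.0286. All groups of 4 without overlap give this permutation p, so it restates the lack of overlap. The brightest probe, at chr17:33480880-33480939, had 46649, 71153, 70610 and 91040 in controls and 61316, 91037, 43262 and 55211 in Gen-treated mice, a difference of -0.17 (SE 0.27), and the probe at chr17:33416924-33418496 gave -0.02 (SE 0.29). In those probes, as in H2-K1 and H2-D1, control replicate 4 and Gen replicate 2 were the highest of their groups, whereas the called probe was highest in control replicate 4 and Gen replicate 4. With 1 array left out its adjusted p stayed under 0.05 in 1 of 8 fits, that without control replicate 4, and lay between 0.0167 and 0.105. Under the other alternatives it lay between 0.0308 and 0.220. The H2-Q2 probe, at chr17:33440548-33440607, lies between the brightest probe and the others. Neither the brightest nor the called probe is listed with transcripts of a RefSeq gene. The remaining probe is listed with both H2-Q1 and H2-Q2. Which transcripts the 3 probes measure was not tested.

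**Figure D2:**
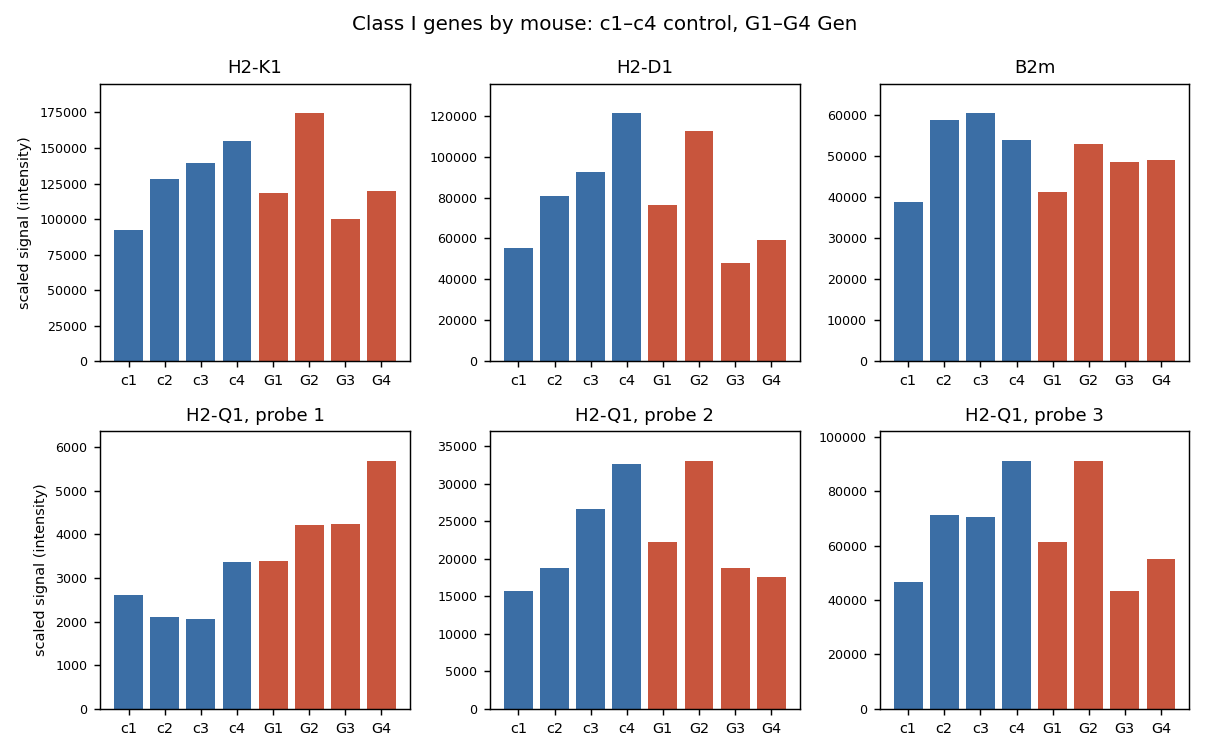
Scaled signals (linear intensity, bars from 0) in the 4 control (c1–c4) and 4 Gen-treated (G1–G4) mice for H2-K1, H2-D1, B2m and the 3 probes named H2-Q1, numbered from the dimmest. Control replicate 4 and Gen replicate 2 are the highest of their groups in H2-K1, H2-D1 and probes 2 and 3 of H2-Q1, whereas probe 1 of H2-Q1 is higher in the 4 Gen-treated mice, from 3395 to 5681.

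Most class I genes measured on every array had the same highest Gen-treated mouse and the same lowest control. The mean deviation of the 14 genes from their control means was -0.30, 0.08, 0.00 and 0.22 in controls and -0.05, 0.44, -0.20 and -0.36 in Gen-treated mice, on the log2 scale. Gen replicate 2 was the highest of its group in 13 of 14 genes, beside 26.8% of all measured probes, and control replicate 1 the lowest of its group in 12 of 14, beside 36.6%. Several of these probes can bind the same transcripts, so the genes are not independent readings.

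The supply of class I peptides showed no difference that passed the test. Of 7 genes, all well above background on all 8 arrays, 2 lay above 0 and 5 below, with a median of -0.08 and a range from -0.25 (Tap2) to 0.18 (Psmb10). By limma 0 had an unadjusted p under 0.05. Tap1, a chain of the peptide transporter, had 981, 1118, 1842 and 1560 in controls and 1124, 1365, 1864 and 1153 in Gen-treated mice, a difference of 0.02 (SE 0.25). Psmb8 had 9472, 13435, 20150 and 16433 in controls and 10587, 16550, 15614 and 12376 in Gen-treated mice, a difference of -0.08 (SE 0.25), and its other probe gave -0.40 (SE 0.30). Psmb9 had 8626, 13367, 17410 and 15522 in controls and 9587, 14743, 14121 and 9182 in Gen-treated mice, a difference of -0.19 (SE 0.26). Control replicate 3 was the highest and control replicate 1 the lowest of the controls in these 3 genes, and the groups overlapped. The mean deviation of the 7 genes was -0.41, -0.08, 0.33 and 0.15 in controls and -0.27, 0.12, -0.03 and -0.13 in Gen-treated mice, so the order of the controls was not that of the class I genes.

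Class II genes lay above the control mean without passing the test. Of the 10 class II genes 8 were well above background on all 8 arrays, and 8 of 8 had a difference above 0, beside 49.1% of all probes measured on all 8 arrays. Their median was 0.31 with a range from 0.03 to 0.62. By limma 0 had an adjusted p under 0.05, and 1, Cd74, had an unadjusted p under 0.05. The median of class II genes exceeded that of class I genes by 0.40, a description without a test. Without Gen replicate 2 the class II median was 0.15. A probe of H2-DMb2 is listed with transcripts of H2-DMb1 as well, so the 8 genes may not all be separate readings.

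Cd74, the invariant chain, had signals of 18414, 19968, 23834 and 22488 in controls and 23851, 36419, 27628 and 33277 in Gen-treated mice. The lowest Gen-treated mouse lay just above the highest control. The difference was 0.50 (SE 0.17), with an adjusted p of 0.0800 by limma, and the adjusted p lay between 0.0379, with an intensity trend and robust fit, and 0.263 under the other alternatives. With Cd74, Ctss and the called H2-Q1 probe, 3 of the 53 measured member probes were higher in Gen without overlap, beside 5.1% of all such probes, and 0 were lower without overlap, beside 7.34%.

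The classical pair H2-Aa and H2-Ab1 encode the chains of the I-A molecule. H2-Aa had 5075, 7255, 6687 and 6993 in controls and 6321, 11464, 8181 and 6987 in Gen-treated mice, a difference of 0.32 (SE 0.21). H2-Ab1 had 26166, 35978, 38446 and 33587 in controls and 32064, 57305, 49079 and 31848 in Gen-treated mice, a difference of 0.31 (SE 0.23). In both genes Gen replicates 2 and 3 lay above every control and Gen replicates 1 and 4 among the controls. The 4 probes of H2-Ab1 gave between 0.23 and 0.41.

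Of the genes that edit class II loading 0 were called, and their differences were not compared with each other. H2-DMa, the alpha chain of H2-DM, had 1305, 1596, 1436 and 1224 in controls and 1719, 2142, 2216 and 1019 in Gen-treated mice, a difference of 0.30 (SE 0.25). Of the Gen-treated mice 3 lay above every control and replicate 4 below every control. H2-DMb1, a beta chain of H2-DM, had 9159, 8299, 4704 and 8881 in controls and 7642, 10752, 4964 and 9243 in Gen-treated mice, a difference of 0.06 (SE 0.30). Replicate 3 was the lowest of its group in both. For H2-DMb2 2 probes gave 0.03 and 0.87, and 1 of them, that with 0.03, was well above background on all 8 arrays. H2-Oa, the alpha chain of H2-O, which is known from B cells and thymus, had 310, 323, 347 and 538 in controls and 466, 965, 458 and 500 in Gen-treated mice, a difference of 0.62 (SE 0.29, adjusted p = 0.206 by limma). Gen replicate 2 stood far above the other mice, and without it the difference was 0.36. Its partner H2-Ob exceeded background on 0 of the control and 3 of the Gen arrays, with signals between 15.2 and 33.7 in controls and between 22.3 and 47.8 in Gen-treated mice, too dim for a fold.

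H2-Ea and H2-Eb1, the alpha and beta chains of the I-E molecule, varied more between mice than between treatments. H2-Eb1 had signals of 3974, 6820, 5910 and 662 in controls and 5770, 11153, 13506 and 403 in Gen-treated mice. Replicate 4 of each group was far below the other mice, which lay between 3974 and 13506. H2-Ea had 239, 273, 20.3 and 39.2 in controls and 273, 503, 413 and 60.0 in Gen-treated mice. The same mice were low, control replicate 3 was low as well and not above background there, and the other 5 lay between 239 and 503. Control replicate 3 was thus low in H2-Ea with an H2-Eb1 signal inside the range of the other controls.

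The SDs within groups were among the largest of the arrays. That of H2-Eb1 was 1.99 and that of H2-Ea 1.65 on the log2 scale, above 99.96% and 99.91% of the probes measured on all 8 arrays, whose median was 0.21. The differences between treatments, 0.43 (SE 1.21) for H2-Eb1 and 1.51 (SE 1.01) for H2-Ea, had adjusted p-values of 0.853 and 0.382 by limma, and the SE of H2-Eb1 exceeded its difference. Without control replicate 4 the difference of H2-Eb1 was -0.33, and without Gen replicate 4 it was 1.57. The SD and difference of H2-Ea include the signal of control replicate 3, which was not above background. Its difference was 0.93 with dim signals raised to a floor and 0.86 with normexp background correction. H2-Aa, H2-Ab1 and Cd74 were not low in either of these mice to a like degree, the lowest of their signals in replicate 4 being 6987, 31848 and 22488. The haplotypes of the mice and the match of the probes to their alleles were not tested.

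**Figure D3:**
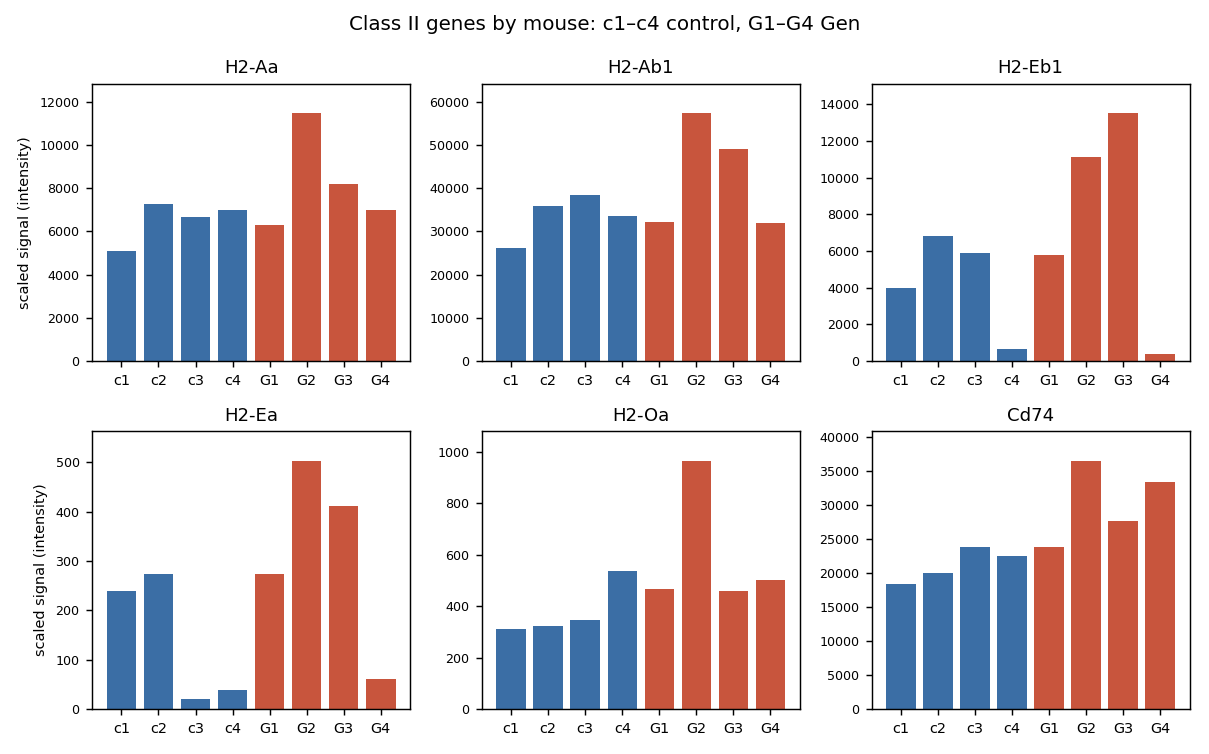
Scaled signals (linear intensity, bars from 0) in the 4 control (c1–c4) and 4 Gen-treated (G1–G4) mice for 6 class II genes. H2-Eb1 is low in replicate 4 of each group (662 and 403) and H2-Ea in those mice and control replicate 3 (20.3 to 60.0), whereas H2-Aa, H2-Ab1 and Cd74 have no such low mice.

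Other members also differed sharply between mice of the same treatment. H2-Bl, a class I gene, had 8.34, 55.6, 131 and 92.6 in controls with 1 probe and 9.18, 57.7, 92.6 and 81.9 with an overlapping one, so that control replicate 1 was near background with both. Its brightest probe had 1767, 4118, 2919 and 2278 in controls and 2433, 3326, 2699 and 791 in Gen-treated mice, where replicate 4 was the lowest. For H2-T22, a ligand of gamma delta T cells, the dimmer probe had 1674, 1355, 508 and 591 in controls and 1356, 1570, 1262 and 909 in Gen-treated mice, with control replicates 3 and 4 low. The median SD within groups was 0.38 for class I genes and 0.37 for class II genes, beside 0.21 for all measured probes. Psme1, a regulator of the proteasome outside the MHC, had the smallest SD of the 74 member probes, 0.08, above that of 4.81% of probes.

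The mean deviation of the 8 class II genes by mouse was -0.10, 0.18, 0.07 and -0.16 in controls and 0.19, 0.90, 0.48 and -0.29 in Gen-treated mice. Leaving out H2-Eb1, these means were -0.15, 0.05, -0.05 and 0.15 in controls and 0.10, 0.77, 0.25 and 0.10 in Gen-treated mice. Gen replicate 2 was the highest in either set, and with H2-Eb1 left out Gen replicates 1 and 4 lay within the range of the controls. Gen replicate 2 was also the highest mouse of the class I genes.

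**Figure D4:**
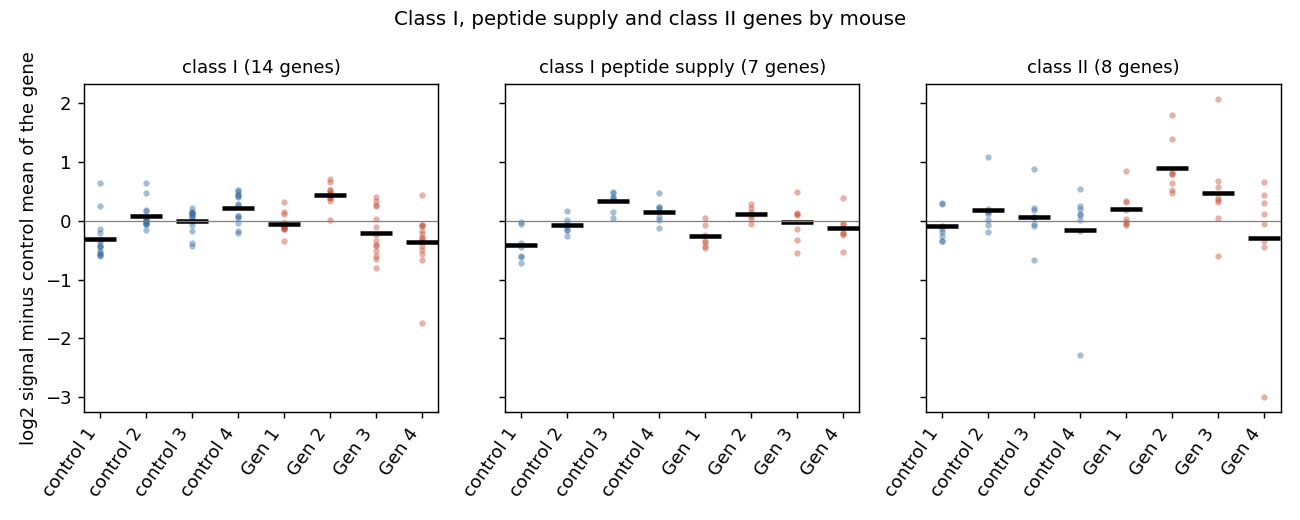
Log2 signal minus the control mean of each gene, by mouse, for 14 class I genes, 7 genes of class I peptide supply and 8 class II genes measured on every array; points are genes and black bars the mean over genes. Gen replicate 2 is highest in class I (0.44) and class II (0.90), and the lowest class II point, in Gen replicate 4, is H2-Eb1.

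Of the remaining members, Cd1d1, which presents lipids to natural killer T cells, had 5408, 5062, 6661 and 6801 in controls and 6520, 7187, 5932 and 7065 in Gen-treated mice, a difference of 0.17 (SE 0.14). Cd86, a costimulatory ligand of CD28, had 91.1, 139, 172 and 151 in controls and 148, 246, 194 and 173 in Gen-treated mice, a difference of 0.47 (SE 0.24, adjusted p = 0.235 by limma), and its other probe gave 0.25 (SE 0.22). The groups overlapped in both genes. Cd80, the other ligand of CD28, exceeded background in 1 control and 4 Gen-treated mice with its brighter probe, between 13.7 and 46.5 in the 8 mice. H2-D4 gave -0.41 (SE 0.30), and H2-Ke2 and H2-Ke6 gave -0.10 and -0.11. The probe named C2ta had 528, 793, 928 and 854 in controls and 773, 1107, 1143 and 420 in Gen-treated mice, a difference of 0.08 (SE 0.34), and Gen replicate 4 was the lowest. Probes of the class II gene H2-Eb2 stood under the name A130038H09Rik, were no members and were above background on 0 arrays. Probes named Psme2b-ps, also no members, gave -0.13 (SE 0.12) and -0.13 (SE 0.12), neither called.

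Markers of the cells that carry class II were read beside Ctss and Cd74, and most did not pass the test. The shares of 16.2% of all probes called, and 4.37% of those measured on every array, stand beside the counts. Beside the counts above 0 stand 49.1% of the probes measured on every array. Of 5 leukocyte markers 1 was called higher, Ptprc, the pan-leukocyte antigen CD45, with 2280, 2201, 2881 and 2687 in controls and 3956, 5775, 3482 and 3554 in Gen-treated mice (0.72, SE 0.19, adjusted p = 0.0367 by limma). Of 8 macrophage markers 2 were called higher, Adgre1 (0.66, SE 0.15) and Itgam (0.74, SE 0.14), and all 8 lay above 0, as did the 5 leukocyte markers. The summed signal of the macrophage list was between 111712 and 160734 in controls and between 157529 and 211510 in Gen-treated mice. Sums of linear signals weigh the brightest markers most. Most of the macrophage sum was Lyz2, with between 91489 and 136227 in controls and between 130089 and 172206 in Gen-treated mice. Lyz2 itself was not called (adjusted p = 0.0903 by limma). The sum of the 5 leukocyte markers was between 8444 and 12269 in controls and between 12315 and 24067 in Gen-treated mice, the highest in Gen replicate 2. Most of it was Ptprc and Coro1a, which was not called (adjusted p = 0.257 by limma).

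Of 8 B cell markers 1 was called higher, Pax5 (1.26, SE 0.33), and 8 lay above 0. Pax5 was dim and above background in 3 of the controls. Its signals were between 48.9 and 76.3 in controls and between 94.8 and 275 in Gen-treated mice. The summed signal of the list was between 1425 and 2823 in controls and between 2592 and 11079 in Gen-treated mice, again the highest in Gen replicate 2. Of 8 dendritic cell markers 0 were called and 5 lay above 0, with sums between 2170 and 3281 in controls and between 2804 and 4865 in Gen-treated mice. Of 8 markers of T and natural killer cells 1 was called higher, Cd8a (1.42, SE 0.38), whose probe exceeded background in 0 of the controls, with sums between 1183 and 1402 and between 1351 and 1871. Each marker of these 5 lists exceeded background on at least 1 array. Of 4 endothelial, 6 oviduct epithelium and 4 smooth muscle markers 0 were called, and 4, 3 and 0 of them lay above 0. Of 6 ovarian steroidogenic and cumulus cell markers 3 were called higher and 6 lay above 0, with a median difference of 2.21. Their sums were 5475, 3439, 28248 and 3169 in controls and 140210, 129970, 31752 and 46328 in Gen-treated mice. Control replicate 3 thus stood far above the other controls. The part of these cells in the differences of Ctss, Cd74 and the class II genes was not tested. With probes filtered on background before the adjustment, Itgam alone of the markers named here kept an adjusted p under 0.05 (0.0412 by limma). Without this filter and with 1 array left out, the adjusted p of Itgam by limma rose to as much as 0.0675. Those of Adgre1, Ptprc, Pax5 and Cd8a rose to between 0.0675 and 0.0991.

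**Figure D5:**
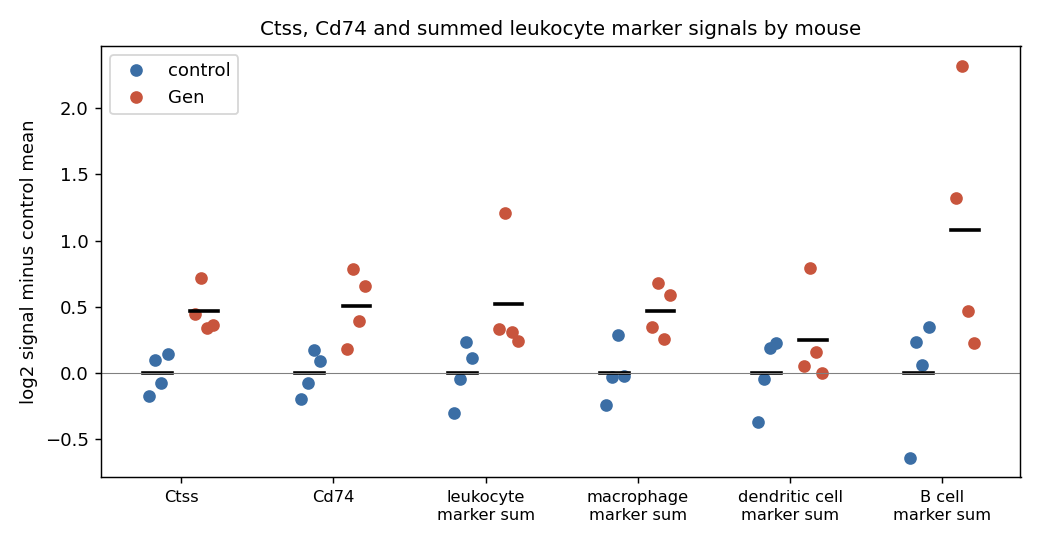
Log2 signal minus the control mean for Ctss, Cd74 and the summed signals of 4 marker lists, 1 point per mouse and black bars for group means. Gen-treated mice lie above controls without overlap for Ctss, Cd74 and the leukocyte sum, and the highest B cell and leukocyte sums are those of Gen replicate 2. The macrophage sum is mostly Lyz2, and the leukocyte sum mostly Coro1a and Ptprc.

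Genes that work beside the members were read from lists of the pathways. In the wider class I pathway 14 of 15 genes had a probe and 0 were called, with a median of -0.07. The largest differences were in Psmb6, a constitutive proteasome subunit (-0.42, SE 0.13, adjusted p = 0.0584 by limma), the iron regulator Hfe (0.25, SE 0.27) and Psmb5, another constitutive proteasome subunit (-0.25, SE 0.11). In the wider class II pathway 1 of 15 genes was called, beside the same 16.2% and 4.37%. It was the lysosomal protease Ctsd, which was lower (-0.78, SE 0.21, adjusted p = 0.0419 by limma). Its adjusted p by limma was 0.104 with probes filtered on background and at most 0.108 with 1 array left out. Cd274 (0.61, SE 0.41) and Cd40 (-0.48, SE 0.64) were next in size. In the interferon gamma pathway 0 of 10 genes were called, with a median of 0.06, and of -0.03 over the 9 measured on every array. The largest differences there among genes above background on all 8 arrays were in Irf8 (0.69, SE 0.24), Gbp2 (0.36, SE 0.28) and Ifngr1 (0.36, SE 0.15). Irf1, a transcription factor induced by interferon gamma, gave -0.06 (SE 0.24).

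Promoters of both classes were searched for short elements. Windows were given for 19 of the 25 class I and 7 of the 10 class II genes, and none for H2-Ab1, H2-Ea or Cd74. In RefSeq windows of GRCm38.p6, which run from 250 bases before to 50 bases after a gene start, the Y box ATTGG was found on either strand in 7 of 8 windows of class II genes and 19 of 21 windows of class I genes, beside 37.4% of all 32851 windows. The X1 box, here CCNAG, any 2 bases and ACNG, was found in 1 of 8 class II and 3 of 21 class I windows, beside 5.33% of windows. The class II match was in H2-DMb1. The class I matches were in H2-M1 and H2-M9, whose probes were above background on 0 and 1 arrays. Only exact matches were counted, so a box that departs from these letters by a single base counts as absent. The interferon-stimulated response element, here GAAA, any 2 bases and GAAA, was found in 3 of 21 class I and 0 of 8 class II windows (3.44% of all), and the gamma-activated site TTCNNNGAA in 2 of 21 and 1 of 8 (8.30%). The upstream stretches of 3 class II genes are shown to set these letters side by side, with the Y box and any match to the X1 letters in capitals.
H2-Aa: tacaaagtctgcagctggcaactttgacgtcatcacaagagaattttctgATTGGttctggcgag
H2-Eb1: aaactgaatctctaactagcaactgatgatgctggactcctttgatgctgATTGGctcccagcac
H2-DMb1: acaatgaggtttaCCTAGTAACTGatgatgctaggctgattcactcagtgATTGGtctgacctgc
They lie at chr17:34287857-34287921 on the minus strand, chr17:34305758-34305822 and chr17:34153080-34153144 on the plus strand, and the Y box begins 48, 59 and 61 bases before the gene start. The relation of these letters to the signals of the mice was not tested. A match is a description of these letters in the reference, and no window was read from the mice of this study.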

How the data were processed

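Oviduct RNA of 4 control and 4 Gen-treated mice was measured on 1-color Agilent arrays. Per the labels, the deposited scanner output came from Agilent Feature Extraction 9.5. Its processed signal, a linear intensity, is adjusted for background and trends within the array and not scaled between arrays. Further deposited flags (other) mark outlier spots, saturation and probes well above background. The Rosetta Resolver step of the methods was not applied.

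The 1639 control spots and outlier spots were left out, spots of a probe were averaged on the log2 scale, and the 75th percentile of every array was brought to the mean of all 8. The groups were compared by lmFit and eBayes of limma 3.58.1 in R 4.3.3 (package data.table, version 1.17.8), with Benjamini-Hochberg adjustment over 41173 probes. Tables and plots used Python 3.11.15, pandas 2.3.3, numpy 2.4.6 and matplotlib 3.10.9. Between 25391 and 31486 probes per array exceeded background, and the count of arrays limits the precision. No probe of a member was saturated. Steps were tested on simulated data.

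The members, gene lists and tests were chosen with earlier results of these data known. Values on 8 arrays are given for a fixed set of 22 class I, class II, peptide supply and costimulatory genes, for members called and well above background in 1 group, and for members with 1 mouse far from its group, others by counts and ranges; H2-Bl and H2-T22 were added after their values were seen. Other genes named are the 3 of each pathway list with the largest difference, and Irf1, added likewise. Results for some genes are not reported here. Gene names of the files were used, and list genes were also matched through RefSeq tables of GRCm38.p6. Alternatives were filters on dim probes, a floor, normexp background correction (offset 50), quantile normalization or no scaling, outlier spots kept, the replicate number as a block, a robust fit with an intensity trend, the methods' t-test, every probe of a gene, and leaving out each array. No genome of the design's build was used, so exons are not given.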

Additional observations from a re-analysis of the deposited data

Results flagged for a closer look

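In groups of 4 mice, 2 of 118 groups held a mouse whose gap to the nearest other mouse in log2 signal, as a share of the log2 range of the group, exceeded the 95% limit of Dixon's test, where chance gives about 1 in 20. For H2-DMb1 in controls the gap was 0.852 of the log2 range, with replicate 3 at a signal of 4704 and the nearest mouse at 8299. For H2-Oa in Gen-treated mice the gap was 0.882 of the log2 range, with replicate 2 at a signal of 965 and the nearest mouse at 500.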

How the results depend on the processing

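The 8 calls among member probes and the 6 among class I genes did not hold under most alternatives. Both filters on dim probes, the floor, quantile normalization, no scaling, normexp background correction and the methods' t-test left 0 calls in either count, with between 3 and 17 member probes at an unadjusted p under 0.05. The replicate numbers did not pair the mice (correlations of deviations from -0.18 to 0.11 over 24920 probes, none best with its own number), and with the replicate number as a block 0 members and 0 class I genes were called. For class II genes the count was 0 except with the intensity trend and robust fit, which called 1 (Cd74). Under quantile normalization the differences of H2-M10.3 and H2-M1 turned to 0.027 and 0.027. With 1 array left out, called member probes numbered 0 to 8, called class I genes 0 to 7 and called class II genes 0 to 0. There were 0 calls of members without control replicate 1, Gen replicate 1, Gen replicate 2 or Gen replicate 3. With 1 array left out the class I median lay between -0.23 and 0.05, the class II median between 0.15 and 0.44, and their difference between 0.23 and 0.46. Under the other alternatives these medians and their difference moved by less than the spread between mice. Without scaling the median of all measured probes moved by 0.24 and the class I median turned to 0.16, while the difference between the classes stayed 0.40. The cause of these changes was not tested. Each group lies on its own slide, and 4 mice per group limit the precision.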
